A study of Mus musculus with 4 samples.

Results

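Cells of the steady-state mouse joint that carried the most MHC class II transcript were described in the library taken before serum transfer. Of the 3715 day 0 barcodes that had at least 500 genes and under 10% mitochondrial UMIs (unique molecular identifiers, which count single captured transcripts), 743 were selected on the highest share of UMIs from H2-Aa, H2-Ab1, H2-Eb1 and Cd74. Of these, 392 had fewer than 3 UMIs of Aqp1 and Fxyd2 together and at most 1 of Sparc, and these 392 barcodes, of 14314 retained over all 4 libraries, are called class II-high here. They were set against the 1486 barcodes, 40% of those retained at day 0, with the lowest share of the same 4 transcripts, called class II-low. The 4 ranking genes and the 3 exclusion genes chose the barcodes, so their levels are a description and support nothing.

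The study sorted CD45+CD11b+Ly6G- mononuclear cells, that is myeloid cells without neutrophils, from hind paw synovial tissue of Cx3cr1creER:tdTomato mice. All 4 groups had received 4 mg/ml tamoxifen, given 2 times in a span of 48 h, and 4 weeks passed before K/BxN serum, whose autoantibodies cause arthritis, was given. Day 0 mice were at steady state and had no serum, and the other libraries came 1, 2 and 5 days after it. There was 1 library per day, made from 17400 loaded cells with the Chromium 3' v2 kit, so day and library cannot be told apart and no test across samples was possible. Cre recombinase in this strain is driven by the Cx3cr1 promoter and works only under tamoxifen, so the tdTomato label marks cells that expressed Cx3cr1 at the pulse and their descendants. The labels give neither the age of the mice nor how many were pooled in a library.

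MHC class II molecules are surface heterodimers that present peptides from the endocytic pathway to CD4 T cells. H2-Aa and H2-Ab1 encode the chains of I-A and H2-Eb1 a chain of I-E. Cd74, the invariant chain, escorts new dimers to endosomes and fills their groove until the H2-DM dimer exchanges its remnant for peptide. Dendritic cells and B cells express class II constitutively, and so do some macrophages, including interstitial macrophages of the synovium, while the macrophages that line the joint cavity are known for Vsig4, Cx3cr1 and low class II. Transcription of the class II genes depends on the coactivator Ciita and on conserved promoter elements called the X and Y boxes.

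To show what the class II genes share upstream, RefSeq promoters of build GRCm38.p6, from 250 bases before to 50 after the annotated start, were searched on both strands for ATTGG (the core of the Y box) and ACNGATG (a word within the X box, in which N is any base). All 7 class II genes with an entry (H2-Aa, H2-Eb1, H2-DMa, H2-DMb1, H2-DMb2, H2-Oa and H2-Ob) held ATTGG in at least 1 entry, and 37.4% of 32851 promoters did. H2-DMa has 2 entries, and the match was in the one at chr17:34125268-34125567 and not in the one at chr17:34122582-34122881. ACNGATG was found in 5 of the 7 (not in H2-DMa and H2-Ob) and in 9.85% of all promoters. The promoters of 2 ranking genes and of the H2-DM beta genes are shown because the H2-DM genes were not used for ranking and yet lay far apart between the groups. Capitals mark the matches. H2-Aa is at chr17:34287774-34288073 on the minus strand, H2-Eb1 at chr17:34305617-34305916, H2-DMb1 at chr17:34152941-34153240 and H2-DMb2 at chr17:34144999-34145298, the last 3 on the plus strand.
H2-Aa: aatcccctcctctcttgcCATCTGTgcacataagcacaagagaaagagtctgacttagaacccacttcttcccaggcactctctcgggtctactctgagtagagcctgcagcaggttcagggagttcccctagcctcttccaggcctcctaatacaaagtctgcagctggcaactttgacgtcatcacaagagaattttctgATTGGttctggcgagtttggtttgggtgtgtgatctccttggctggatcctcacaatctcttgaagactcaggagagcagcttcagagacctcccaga
H2-Eb1: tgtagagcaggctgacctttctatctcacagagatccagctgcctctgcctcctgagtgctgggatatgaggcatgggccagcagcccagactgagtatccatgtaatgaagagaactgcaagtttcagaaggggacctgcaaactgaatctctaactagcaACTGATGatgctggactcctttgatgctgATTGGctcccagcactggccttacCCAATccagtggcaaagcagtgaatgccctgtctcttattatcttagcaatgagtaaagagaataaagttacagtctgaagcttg
H2-DMb1: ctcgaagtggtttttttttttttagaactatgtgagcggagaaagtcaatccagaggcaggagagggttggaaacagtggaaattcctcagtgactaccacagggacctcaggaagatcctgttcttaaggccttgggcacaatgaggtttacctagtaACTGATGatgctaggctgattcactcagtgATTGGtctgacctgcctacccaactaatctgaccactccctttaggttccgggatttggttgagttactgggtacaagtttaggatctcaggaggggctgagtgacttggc
H2-DMb2: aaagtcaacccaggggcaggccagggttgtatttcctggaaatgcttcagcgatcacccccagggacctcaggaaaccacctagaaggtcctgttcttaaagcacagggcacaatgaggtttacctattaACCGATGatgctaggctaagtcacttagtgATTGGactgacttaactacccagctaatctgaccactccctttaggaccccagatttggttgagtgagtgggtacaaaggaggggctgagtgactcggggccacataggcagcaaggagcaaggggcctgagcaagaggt
ATTGG began at -48 from the start site in H2-Aa, -59 in H2-Eb1, -61 in H2-DMb1 and -90 in H2-DMb2. ACNGATG began at -88 in H2-Eb1, -91 in H2-DMb1 and -120 in H2-DMb2, upstream of ATTGG in each, and in H2-Aa it was on the other strand at -232. H2-Eb1 held ATTGG also on the other strand, at -35. A match is a description of these letters and not a measured binding site.

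The day 0 library stood apart from the others in depth. The median of its retained barcodes was 1057 UMIs, while the libraries of days 1, 2 and 5 reached 3607.5, 4183.5 and 3897, and 49.9% of its 7542 barcodes fell under 500 genes. Class II-high and class II-low barcodes had nearly the same depth, with medians of 1064 and 1039.5 UMIs and of 585.5 and 594 genes, and their mitochondrial medians were 2.64% and 3.18%. Summed UMIs were 446642 and 1712257, so a level of 10 CPM (the UMIs of a gene per 1000000 UMIs of its group) rested on 4.47 UMIs in the class II-high set. Of the 392 barcodes, 2 had the same sequence as a barcode of day 1, 2 as one of day 2 and 0 as one of day 5, counting all deposited barcodes of those days. No doublet caller was run and free RNA was not removed, and their part in the results was not tested. Intervals below are exact 95% intervals for the UMIs counted, and they cover counting error only.

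The class II share had no gap at the boundary. Class II-high barcodes ran from 1.96% to 12.4% of UMIs with a median of 3.10%, which was a median of 35 and at least 17 class II UMIs per barcode, while class II-low barcodes ended at 0.338% and had a median of 1 such UMI. The members next to the boundary stood at 1.96%, and the nearest barcodes below it that passed the exclusions stood at 1.95%. Within 25% of the boundary lay 88 members above and 107 such barcodes below. By its rule the class II-high set is a range of a per-barcode score, and no clustering was run. All 4 ranking genes were seen together in 377 members (96.2%) and in 10 class II-low barcodes (0.673%). Cd74 stood at 19297 CPM in members and 641 in class II-low barcodes, H2-Ab1 at 6408 and 251, H2-Aa at 6034 and 216, and H2-Eb1 at 3983 and 120.

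**Figure D1:**
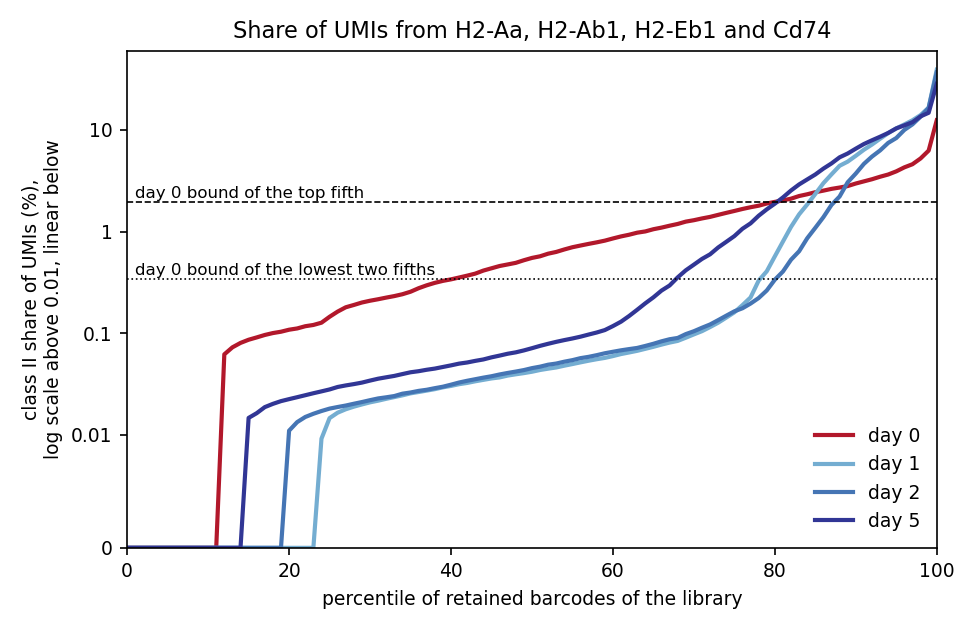
Share of a barcode's UMIs from the 4 ranking class II genes (y, percent, log scale above 0.01 and linear below) against the percentile of that barcode among the retained barcodes of its library (x), with 1 line per day and the day 0 bounds of the class II-high and class II-low groups as dashed and dotted lines. The day 0 line climbs evenly through both bounds, while the lines of the later days stay low over most barcodes and climb steeply at their upper end.

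Later libraries were split more sharply by the same share. Between 1% and the day 0 boundary lay 16.1% of day 0 barcodes, against 2.50%, 2.79% and 4.70% at days 1, 2 and 5, as the plot of class II shares by day shows. The median share was 0.550% at day 0 and 0.0418%, 0.0453% and 0.0712% at the later days, and the 99th percentile was 6.25%, 16.6%, 16.4% and 14.7%. The summed share in each library's lower set was 0.123% at day 0 and 0.0108%, 0.0121% and 0.0215% later, so class II transcript was thinly present even in the class II-low barcodes of day 0. Each barcode's UMIs were also divided at random into 2 equal sets, and the rule was applied to 1 of them. The exclusions are fixed UMI counts and removed fewer barcodes there, so the 607 barcodes selected are not the class II-high set. They had 3.5% class II in that set and 3.31% in the other, and the 1486 lowest had 0.0947% and 0.192%. These are values of the ranking genes, so they are a description and support nothing.

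Beside the ranking genes, the transcripts that set class II-high barcodes apart were those of class II peptide loading, of the chemokine Ccl17, and of lectins and receptors known from type 2 dendritic cells and monocytes, while none of 20 core macrophage genes reached a 2-fold difference. A gene was called when its summed CPM differed at least 2-fold and reached 10 CPM in a group; with 1 library this is a rule of size and not a test. By this rule 401 of 7285 genes (5.5%) were higher and 471 (6.47%) lower in class II-high barcodes, and most of these rested on few UMIs. At a minimum of 50 CPM, which was chosen after the values were seen, 52 of 2672 genes (1.95%) were higher and 33 (1.24%) lower.

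Class II loading genes outside the rule were high together. H2-DMa, the alpha chain of the peptide exchange factor, had 261 UMIs in class II-high and 104 in class II-low barcodes, or 584 and 60.7 CPM, a 9.62-fold difference (7.64 to 12.2). H2-DMb1, one of its beta chains, stood at 448 and 48.5 CPM, 9.24-fold apart (7.12 to 12.1). At least 1 H2-DMa UMI was seen in 45.7% of class II-high and 5.92% of class II-low barcodes, and in 24.2% and 2.89% once each barcode was thinned to 500 UMIs. H2-DMb2, a near-identical copy of H2-DMb1 between which reads can be divided, had 13 and 4 UMIs (12.5-fold, 3.85 to 52.5). The regulator Ciita was near the limit of detection, with 3 UMIs in each group, although the class II-low group had more UMIs in total. Its log2 ratio was 1.94, and from 0.46 to 4.00 over the 18 alternatives, and it rests on these few UMIs.

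Other steps of the pathway did not share that pattern. Ctss, the protease that trims the invariant chain, stood at 3229 CPM in class II-high and 3495 in class II-low barcodes (ratio 0.924, 0.872 to 0.979), and the endosomal protease Lgmn at 1648 and 2248 (0.733, 0.677 to 0.793). March1, the ubiquitin ligase that removes class II from the surface, had 7 and 59 UMIs (0.455, 0.175 to 0.997), and its log2 ratio turned to 0.13 when the exclusions were made before the ranking. Of the 14 genes listed for the pathway, 11 were in the file and 7 reached 10 CPM outside the rule; 3 of the 7 were called higher and 1 lower. Their median log2 ratio was 0.26, beside -0.06 over all genes measured. MHC class I genes were nearly even, with 0 of 15 called, a median log2 ratio of 0.20, and B2m, their shared light chain, at a ratio of 0.975.

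**Figure D2:**
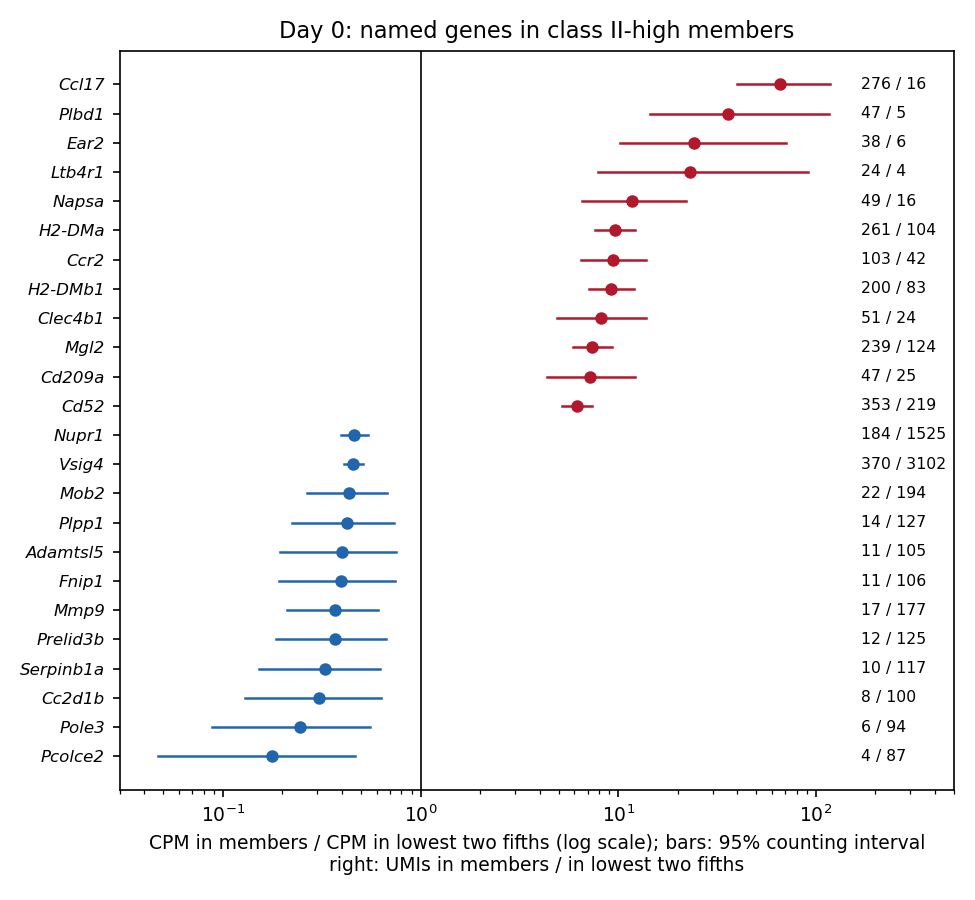
Ratio of CPM in class II-high over class II-low barcodes of day 0 (x, log scale) for the first 12 genes in each direction, with exact 95% counting intervals as bars and the UMIs of both groups at the right. Ccl17 lies farthest to the right at 66.1, and the lower genes have ratios between those of Pcolce2 and Nupr1, mostly from few UMIs.

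Ccl17 and the genes ranked after it were at low levels in class II-low barcodes. Ccl17, a chemokine that draws Ccr4-bearing T cells, had 276 UMIs in class II-high and 16 in class II-low barcodes, 618 against 9.34 CPM, a 66.1-fold difference (40 to 117). It is also among the genes proposed as markers of these cells. Plbd1, a phospholipase B-like lysosomal protein, had 47 and 5 UMIs (36.0-fold, 14.4 to 116). Ear2, a ribonuclease of a family with near-identical copies, had 38 and 6 (24.3-fold, 10.2 to 70.3), and Ltb4r1, the leukotriene B4 receptor, 24 and 4 (23-fold, 7.90 to 91.2). Napsa, an aspartic protease, had 49 and 16 UMIs (11.7-fold, 6.56 to 22.1). Cd52, a small surface glycopeptide of leukocytes, was the most abundant of the 12, at 790 and 128 CPM (6.18-fold, 5.21 to 7.35). It was seen in 51.8% of class II-high and 11.9% of class II-low barcodes, or 31.6% and 6.26% after thinning. All 12 stayed at least 2-fold higher under the 18 alternative settings tried, of which those that changed only the low-value filter could not alter a gene's ratio.

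Ccl17 transcript was concentrated in few cells, unlike the lectins. It was seen in 69 of the 392 class II-high barcodes (17.6%) and in 1.01% of class II-low ones, or 11.7% and 0.606% after thinning. The highest class II-high barcode had 42 UMIs, and the 10 highest held 184 of the 276, or 66.7%. Without those 10, the log2 ratio of Ccl17 went from 6.05 to 4.51. In the class II-low group no barcode had more than 2. Mgl2 reached 4 UMIs at most and its 10 highest barcodes held 13.8% of its UMIs, so its transcript was spread over many cells. The 9 barcodes with at least 5 Ccl17 UMIs, a boundary set after the values were seen, had a median class II share of 4.36%. Ccr7, the receptor that guides dendritic cells to lymph nodes, had 8 of its 12 UMIs in 3 of these 9 barcodes. Il1b stood at 1436 CPM in the 9, at 198 in the 60 with 1 to 4 Ccl17 UMIs and at 157 in the 323 without. The 3 C1q genes ran the other way, at 6620, 11336 and 14482 CPM.

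Genes of type 2 dendritic cells, the CD4 T cell-stimulating branch of conventional dendritic cells, were higher as a group. Of 13 measured, 10 were called higher and 1 lower, with a median log2 ratio of 2.85 beside -0.06 over all genes. The summed level of the list was 2615 CPM against 632. Of its 1168 UMIs in class II-high barcodes, Ccl17 held 276 and Mgl2 239, and both are among the proposed markers of these cells. The list was chosen with earlier results of these data known, so its values are a description and not independent support. Mgl2, a galactose-binding lectin, stood at 535 and 72.4 CPM (7.39-fold, 5.92 to 9.25), and it was seen in 39.5% and 7.60% of barcodes, or 21.4% and 3.36% after thinning. Cd209a, a mouse relative of DC-SIGN, had 47 and 25 UMIs (7.21-fold, 4.35 to 12.2). Tnip3, an inhibitor of NF-kB signalling, had 30 and 17 UMIs (6.77-fold, 3.61 to 13.1), and the dendritic cell transcription factor Irf4 12 and 17 (2.71-fold, 1.18 to 6.01). The membrane protein gene Tmem176a was at 228 and 92.3 CPM (2.47-fold, 1.91 to 3.19). The exception, Ifitm1, had 1 and 21 UMIs. The defining genes of the dendritic lineage were at the edge of detection, with Zbtb46 at 0 UMIs and Flt3 at 4 in class II-high and 1 in class II-low barcodes.

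Other dendritic classes were thinly represented. Among type 1 genes, Batf3 (24 and 29 UMIs, 3.17-fold, 1.77 to 5.64) and Naaa (2.68-fold, 1.78 to 4.00) were called higher, while Irf8 had a ratio of 0.877 and Wdfy4, Tlr3 and Plet1 were at 0 UMIs in class II-high barcodes. Of 7 mature dendritic genes 3 were called higher, Ccr7 with 12 and 2 UMIs, Ccl22 with 7 and 4, and Traf1 with 16 and 17; the summed level of that list was 318 against 289 CPM. None of 3 plasmacytoid genes was called. Among co-stimulatory molecules, Slamf7 was the 1 called of 7 (51.5 against 11.1 CPM, 4.64-fold, 2.42 to 9.01). The classical co-stimulators did not share it, with Cd86 at a ratio of 0.847 and Cd40 at 0.635.

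Secreted signals and their receptors beyond Ccl17 also differed. Il1b, the inflammatory cytokine, had 89 and 67 UMIs, 199 and 39.1 CPM, a 5.09-fold difference (3.67 to 7.10), and it was seen in 13.5% and 3.30% of barcodes, or 8.16% and 1.75% after thinning. Ccr2, the receptor through which monocytes leave the bone marrow, had 103 and 42 UMIs (9.40-fold, 6.51 to 13.8) and was seen in 21.9% and 2.62% of barcodes, or 11.2% and 1.08% after thinning. Of 19 chemokine genes 4 were called higher: Ccl17, Ccl22, Cxcl14 (80.6 against 15.8 CPM, 5.11-fold, 3.02 to 8.75) and the interferon-induced Cxcl10 (14 and 19 UMIs, 2.82-fold, 1.31 to 5.94). Of 17 C-type lectins 4 were called higher, with a list median of 0.61 on the log2 scale. Clec4b1 was among them (51 and 24 UMIs, 8.15-fold, 4.92 to 13.8), as was Cd209d (228 against 103 CPM, 2.22-fold, 1.72 to 2.85). The fatty acid carriers Fabp4 (14 and 5 UMIs, 10.7-fold, 3.65 to 38.1) and Fabp5 (2.49-fold, 1.86 to 3.33) were the 2 called of 22 lipid genes. Immediate early genes, which also respond to tissue digestion, had 0 of 22 called and a median log2 ratio of 0.36.

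The monocyte list was mixed. Of 6 measured genes 3 were called higher, Ccr2, Ms4a4c and Sirpb1c, and 2 lower, the matrix genes Vcan (3 and 49 UMIs) and Fn1 (264 against 532 CPM, ratio 0.497). The list summed to 699 CPM in class II-high and 721 in class II-low barcodes. When the rule was applied again to thinned barcodes it selected 641, so the barcodes compared changed as well as the depth. Sirpb1c then turned to a log2 ratio of -0.37, and the list's median, 1.18, to -0.18.

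Class II-high barcodes kept the macrophage transcripts. Of 20 core macrophage genes 0 were called, the median log2 ratio was -0.35, and the summed level was 32075 CPM against 40491. C1qa, of complement component C1q, stood at 4811 and 6220 CPM (0.774, 0.738 to 0.810), and Apoe, the lipid carrier, at 5783 and 7561 (0.765). Csf1r, the receptor for the macrophage growth factor, was at 813 and 976 (0.833). Core genes took a median of 3.08% of the UMIs of a class II-high barcode, with the 5th to 95th percentiles at 1.26% and 5.31%, against 3.93% in class II-low barcodes. At least 1 C1q UMI was present in each of the 392, and the median was 15 UMIs. A count of 0 barcodes without C1q allows a share of up to 0.765% by the limit of 3 counts, and the exact interval ends at 0.937%. Of the members, 173 (44.1%) had at least 2 UMIs from 17 type 2 dendritic genes, against 13.8% of class II-low barcodes. Among the barcodes that the exclusions removed, 45.9% had them. On these markers the set could not be given the name of a dendritic cell or of a macrophage subset, and it is called by its rule.

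**Figure D3:**
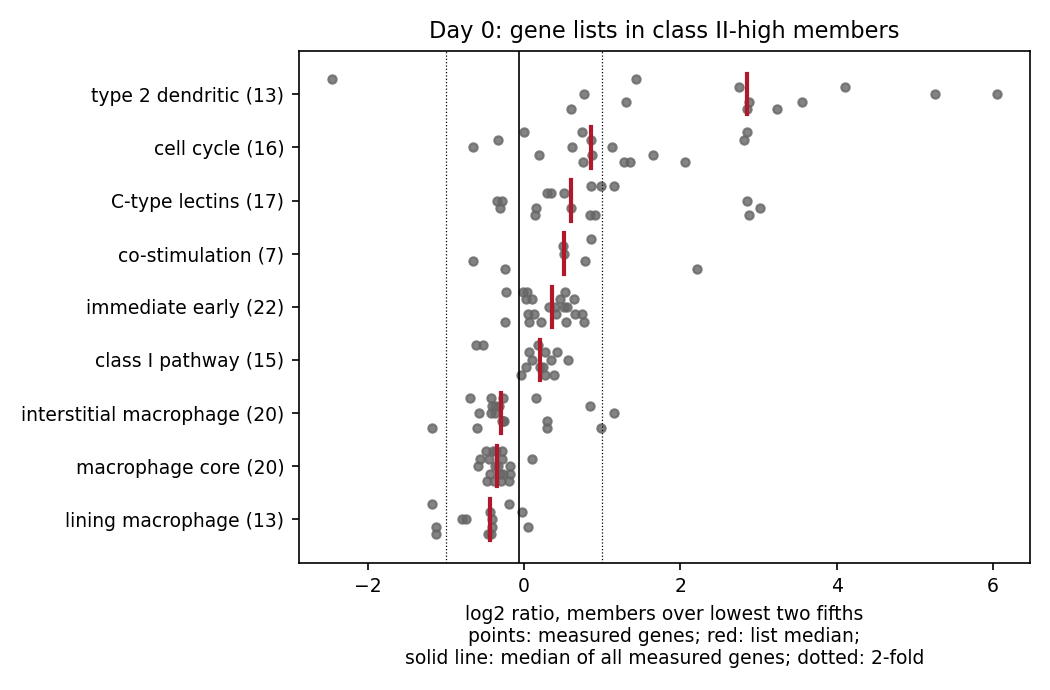
Log2 ratio of class II-high over class II-low barcodes of day 0 (x) for each measured gene of 9 lists (points, number of genes in brackets), with the list median in red, the median of all measured genes as a solid line and 2-fold differences as dotted lines. The type 2 dendritic list has its median at 2.85, and all 20 macrophage core genes lie inside the 2-fold lines.

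Of 13 lining macrophage genes 3 were called lower, and the reporter TdTomato did not reach a 2-fold difference. Vsig4, a complement receptor of the joint-lining layer, had 370 and 3102 UMIs, 828 against 1812 CPM, a level 2.19-fold lower (1.96 to 2.44). It was seen in 53.6% of class II-high and 72.8% of class II-low barcodes, or 31.9% and 51.1% after thinning. Timd4, a receptor for apoptotic cells (42.5 against 95.8 CPM, 2.25-fold lower, 1.40 to 3.84), and Olfml3 (76.1 against 165, 2.17-fold lower, 1.52 to 3.20) were the others called, and the list median was -0.44. Vsig4 and Olfml3 kept a 2-fold difference in 13 of the 18 alternatives and Timd4 in 14. TdTomato, the reporter transcript, stood at 620 and 1006 CPM (0.616, 0.541 to 0.700) and was seen in 45.9% and 59.8% of barcodes, or 24.0% and 37.5% after thinning. Cx3cr1, whose promoter drives the recombinase, had 14 and 93 UMIs (0.577, 0.304 to 1.02). Interstitial macrophage genes had 1 called higher, Cd209d, and 1 lower, Timd4, of 20; the alternative activation gene Retnla stood at 837 and 683 CPM (1.23, 1.09 to 1.38) and Lyve1 at 905 and 1366 (0.662).

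The other genes ranked lowest were mostly at low counts. Nupr1, a stress-induced nuclear protein, was the exception, with 184 and 1525 UMIs and a level 2.16-fold lower (1.85 to 2.53). Pcolce2, an enhancer of procollagen cleavage, had 4 and 87 UMIs (5.67-fold lower, 2.14 to 21.3), and Pole3, a subunit of DNA polymerase epsilon, 6 and 94 (4.09-fold lower, 1.81 to 11.4). The gelatinase Mmp9 had 17 and 177 UMIs (2.72-fold lower, 1.65 to 4.77). Mmp9 is also on the osteoclast list, which summed to 524 CPM in class II-high and 909 in class II-low barcodes, with the bone-resorbing phosphatase Acp5 at a ratio of 0.52. Of the 12 first lower genes, Pcolce2 stayed at least 2-fold lower in all 18 alternatives and the others in 12 to 17, and Fnip1, which regulates cellular energy sensing, turned to 0.32 on the log2 scale among barcodes with at least 700 genes.

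Markers of cells outside the sorted gate were at low levels. The B cell list summed to 157 and 94.6 CPM, mostly Ighm (62 and 151 UMIs, ratio 1.57, 1.15 to 2.13). The T and innate lymphoid list summed to 85.1 and 53.1 CPM, with Cd3e and Cd3g at 0 UMIs in class II-high barcodes. Of its 3 measured genes, whose median log2 ratio was 0.89, 1 was called higher, the interleukin 7 receptor gene Il7r with 7 and 1 UMIs (26.8-fold, 3.45 to 1209). Neutrophil genes summed to 56.0 and 123 CPM, and endothelial genes had 6 and 14 UMIs. Fibroblast genes were higher, at 51 and 72 UMIs or 114 and 42.0 CPM, almost entirely through the matrix proteoglycan Dcn (40 and 37 UMIs, 4.14-fold, 2.58 to 6.66). Dcn was seen in 19 class II-high barcodes, and 10 of them held 77.5% of its UMIs; Col3a1 was at 0. The part of these markers in the results was not tested.

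Of 16 cell cycle genes measured 7 were called higher and 0 lower, and the list median was 0.86 on the log2 scale. The mitotic genes led: Ccnb2, cyclin B2, had 17 and 9 UMIs (7.24-fold, 3.05 to 18.4), Ccnb1 11 and 6 (7.03-fold, 2.38 to 23.1), and Ube2c, which marks mitotic cyclins for degradation, 35 and 32 (4.19-fold, 2.52 to 7.0). Birc5, a survival protein of the mitotic spindle, had 27 and 33 (3.14-fold, 1.81 to 5.38). S phase genes did not share the pattern, with Pcna at a ratio of 0.796 and Tyms at 0 and 18 UMIs. Of class II-high barcodes 33, or 8.42% (5.87 to 11.6), had at least 2 UMIs from 9 mitotic genes, a subset chosen after the values were seen, against 2.09% (1.42 to 2.95) of class II-low barcodes. After thinning, the shares were 3.83% and 1.14%. Over the later libraries, which were deeper, the same count without thinning gave 6.67% and 2.1% at day 1, 9.34% and 2.21% at day 2, and 7.95% and 4.87% at day 5. Barcodes that the exclusions removed there had 10.8%, 5.92% and 4.72%, above the class II-high share at day 1 and below it at days 2 and 5. Once thinned, the class II-high and class II-low shares were 1.48% and 0.323%, 2.72% and 0.643%, and 1.85% and 1.31%. The intervals of these thinned shares overlapped between the groups on each later day.

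Within the day 0 library, the class II-associated genes were higher rank by rank and not only past the boundary. With no exclusions and the retained barcodes divided into 5 equal ranks, Ccl17 went through 4.61, 14.2, 51.8, 137 and 529 CPM from the lowest to the highest. H2-DMb1 went through 35.7, 61.6, 96.6, 156 and 410. Mgl2 and Ccr2 followed, from 58.7 to 514 and from 18.4 to 237. C1qa went the other way, from 6550 to 4964, and Vsig4 from 1968 to 918 CPM. TdTomato ran from 1080 in the lowest to 648 in the highest rank. In each step from one rank to the next, Ccl17, H2-DMb1, Mgl2 and Ccr2 were higher, and C1qa and Vsig4 were lower.

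**Figure D4:**
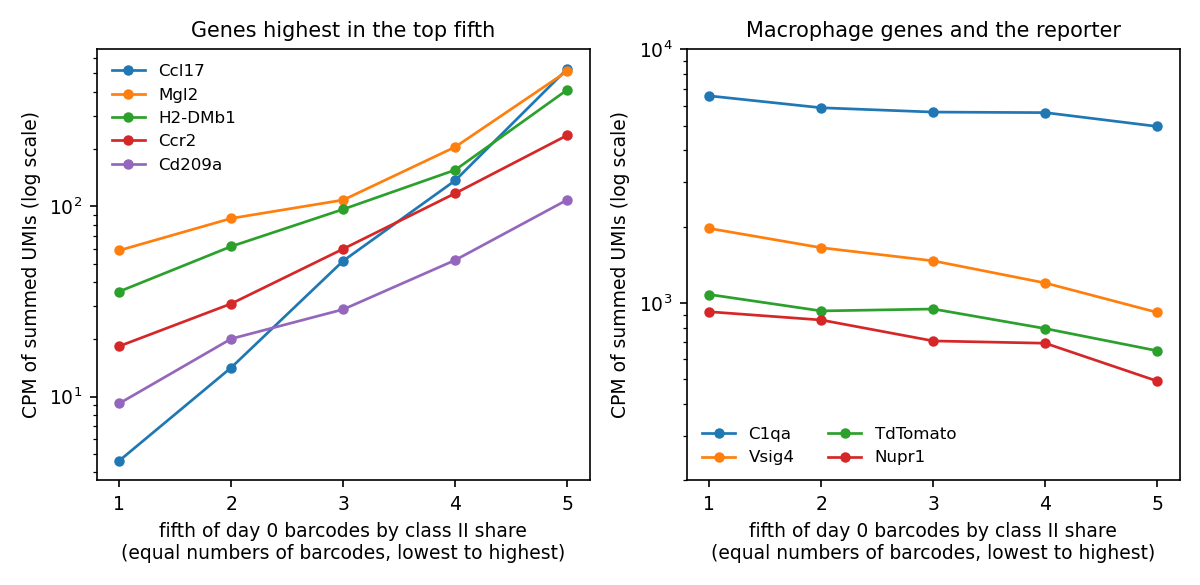
Summed level in CPM (y, log scale) over 5 equal ranks of day 0 barcodes by class II share (x, lowest to highest), without exclusions, for class II-associated genes (left) and macrophage genes and the reporter (right). Ccl17 climbs from 4.61 to 529 and C1qa declines from 6550 to 4964.

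The exclusions removed 351 of the 743 barcodes (47.2%): 238 for Aqp1 and Fxyd2, 69 for Sparc and 44 for both. The same limits would have removed 69.4% of class II-low barcodes, leaving 455. In the excluded barcodes, which had a median of 1160 UMIs, the class II programme was much the same. Of 7404 genes measured, 7.29% were called higher and 7.87% lower in members than in excluded barcodes, and in the type 2 dendritic list 0 of 13 were called, with a median log2 ratio of -0.02. Mgl2 had a ratio of 1.08 (0.900 to 1.31), Cd209a of 0.944 and Ccr2 of 0.951, while Ccl17 was at 618 and 441 CPM (1.40, 1.16 to 1.69). Cell cycle genes differed, with 8 of 17 called higher and 2 lower and Birc5 3.95-fold higher. Excluded barcodes with at least 2 mitotic UMIs were 1.99% (0.805 to 4.07).

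When the same limits were also applied to the class II-low group, 7.71% of 7512 genes were called higher and 9.7% lower. The log2 ratios of Ccl17, H2-DMb1 and Mgl2 were then 5.90, 3.51 and 2.46, and that of Vsig4 was -0.92.

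Class II-high barcodes differed among themselves in the lectins and Ccl17. Of the 392, 102 (26.0%) had at least 2 UMIs of Cd209a, Mgl2 and Ccl17 together, 109 (27.8%) had 1 and 181 (46.2%) had 0, and their median class II shares were 3.75%, 3.10% and 2.76%. The sets also differed in depth, with medians of 1138 UMIs in the upper and 1015 in the lower, and the part of depth in the division was not tested. In the comparison of the 102 with the 181, 17.9% of 7795 genes were called higher and 8.84% lower, and at 50 CPM 6.43% and 7.31% of 2861. H2-DMa was at 810 and 450 CPM (1.80-fold, 1.34 to 2.42), but its log2 ratio of 0.85 ran from -0.01 to 1.17 over 5 alternatives. Plbd1 was 2.75-fold higher (1.37 to 5.71) and Il1b 1.87-fold higher (1.14 to 3.09). Ccr7 had 8 UMIs against 1 and Ccl22 7 against 0. The osteoclast genes ran the other way: Acp5 had 2 UMIs against 29 (9.43-fold lower, 2.39 to 81.6) and Ctsk, the collagen-degrading cathepsin, 10 against 56 (3.64-fold lower, 1.84 to 8.01), and 3 of 4 were called lower, with a list median that turned to 0.76 on the log2 scale after thinning. Ccr2 (1.21-fold, 0.726 to 2.01), Vsig4 (0.906, 0.700 to 1.17) and TdTomato (1.12, 0.840 to 1.48) had intervals that included 1.

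Co-detection of the 3 genes was modest. At least 1 was seen in 211 class II-high barcodes, 53.8% (48.8 to 58.8), and in 146 class II-low barcodes, 9.83%. Ccl17 and Mgl2 were together in 32 members, Ccl17 without Mgl2 in 37, and Mgl2 without Ccl17 in 123. All 3 were seen in 5 members and in 0 class II-low barcodes.

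The same rule was applied to each later library, which gave 540, 257 and 541 barcodes at days 1, 2 and 5, set against that library's own lower 40%. These libraries were deeper, and every value stands within its own library. The shares of genes called higher were 6.2%, 6.51% and 4.88% and of genes called lower 11.9%, 10.8% and 11.6%. Ccl17 stood at 338 CPM against 1.18, 507 against 1.51 and 657 against 4.15, and was higher in the class II-high set at each day. Its level in those sets was of the same order as the 618 of day 0, and the lower sets were below the 9.34 of day 0. H2-DMb1 was 32.7-, 29.1- and 25.9-fold higher, against 9.24 at day 0. Ccr2 was 33.7-, 32.4- and 3.96-fold higher, and Cd209a 43.5-, 50- and 78.1-fold. All 12 first-ranked higher genes of day 0 were at least 2-fold higher on each later day, and of the 12 lower genes 10, 9 and 9 were at least 2-fold lower. Mmp9 was the 1 of these called higher on a later day, at day 2 with 66.1 against 10.0 CPM (6.59-fold higher, 4.49 to 9.69). Its 62 UMIs in the class II-high set of day 2 lay in only 1.95% of those barcodes, and it was seen in 0.735% of class II-low ones.

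**Figure D5:**
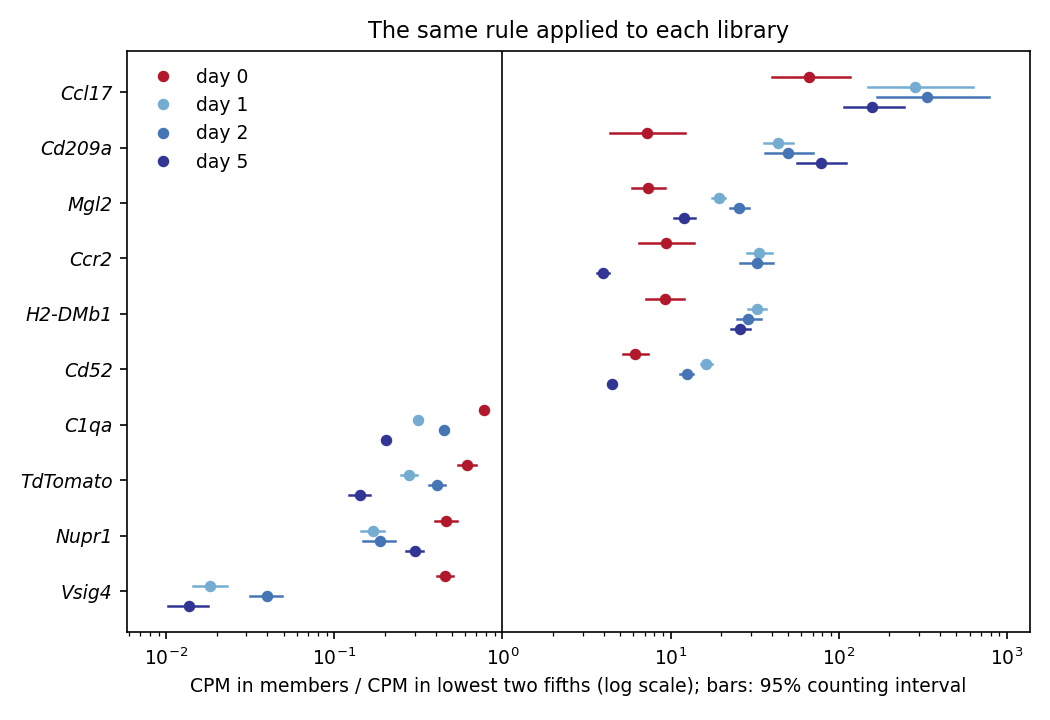
Ratio of CPM in class II-high over class II-low barcodes (x, log scale) for 10 genes in each day's library under the same rule, with exact 95% counting intervals as bars. For Vsig4 the day 0 level is 2.19-fold lower and the later ones are 25.3- to 73.4-fold lower, and for Cd209a the later ratios of 43.5 to 78.1 lie above the 7.21 of day 0.

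On the macrophage side, the class II-high barcodes of day 0 had other values than those of the later libraries, though no test of that difference was possible with 1 library per day. Core macrophage genes in class II-high and class II-low barcodes summed to 32075 and 40491 CPM at day 0. The sums were 18073 and 52324 for day 1, 27807 and 54438 for day 2, and 13244 and 40773 for day 5. Vsig4 was 2.19-fold lower in class II-high barcodes at day 0 and 54.6-, 25.3- and 73.4-fold lower later. The exclusions are fixed UMI counts, so the same level of their genes meets them more readily in the deeper later libraries. At day 0, Vsig4 stood at 828 CPM in members and 1005 in the barcodes that the exclusions removed. At days 1, 2 and 5 it stood at 38.1 and 409, 91.6 and 596, and 22.3 and 256. The part of the exclusions in these differences was not tested. TdTomato had a ratio of 0.616 at day 0 and of 0.278, 0.409 and 0.142 later. These later ratios moved with 2 alternatives (thinning, or barcodes past the day 0 share). Both of these settings chose the barcodes again. Each pair below gives the lower value first, whichever setting it came from. Under these settings Vsig4 had log2 ratios of -5.91 and -3.26 (day 1), -5.40 and -2.49 (day 2), and -6.17 and -4.98 (day 5). TdTomato had -2.04 and -1.52, -1.40 and -0.69, and -2.79 and -2.24. Over the 18 alternatives of day 0, Vsig4 ran from -1.29 to -0.86 and TdTomato from -0.81 to -0.53. The upper day 2 value of TdTomato lay within that range. With all barcodes thinned to 500 UMIs, the share of class II-high barcodes that lacked C1q UMIs was 1.28% at day 0 (interval 0.415 to 2.95). It was 34.6% (30.6 to 38.8), 21.0% (16.2 to 26.5) and 58.4% (54.1 to 62.6) on days 1, 2 and 5. In class II-low barcodes, 0.808%, 1.19%, 2.11% and 20.5% lacked them. Type 2 dendritic genes summed to 2615, 5854, 5220 and 6626 CPM in the class II-high sets, and Klrd1, a receptor on that list, stood at 22.4, 112, 49.0 and 168 CPM in them, against less than 1 CPM in each class II-low set.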

How the data were processed

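The authors deposited 1 table of raw UMI counts for each library, with genes in rows and barcodes in columns. Cell Ranger 2.1.0, Seurat 2.3, R 3.5.2 and the mm10 build appear in the submitters' processing notes, but which step each served is not stated there. A gene is listed in a table if at least 5 of its barcodes carry it. The retained barcodes had 500 genes or more and less than 10% mitochondrial UMIs, and no doublets were removed. Counts were summed over the barcodes of a group and scaled to CPM of all UMIs. Intervals at 95% are exact, from the conditional Poisson model for ratios and by Clopper-Pearson for shares. A gene was measured when it reached 10 CPM in a group, and called when it differed at least 2-fold.

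Named genes had at least 50 CPM in a group and a 2-fold difference, ranked by the log2 ratio with 5 CPM added, the first 12 in each direction. The 7 genes of the rule were left out, and mitochondrial, ribosomal, haemoglobin, sex-linked and predicted genes too. Up to 4 measured genes with the largest ratios of each gene list, every measured class II pathway gene, TdTomato and Cx3cr1 were added. Other genes in the text were chosen after their values were seen. The members and gene lists were chosen with earlier results of these data known. The X box word was shortened after a longer form had been searched. Shares of barcodes were recomputed in the same groups after thinning each barcode to 500 UMIs. Where log2 ratios, list medians or counts of called genes are given after thinning, the barcodes compared were also chosen again on thinned UMIs. The alternatives changed the gene and mitochondrial limits, the order of the exclusions, the ranks compared, the UMIs used for ranking, the scaling, the low-value filter and the highest-UMI barcodes. The calculations, in Python 3.11.15 with NumPy 2.4.6 and SciPy 1.17.1, and figures in matplotlib 3.10.9, were tested on simulated data.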

Additional observations from a re-analysis of the deposited data

How the results depend on the processing

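The log2 ratios of Ccl17, Mgl2, H2-DMa, H2-DMb1, Ccr2, Cd52 and Plbd1 stayed past 2-fold higher in all 18 alternatives, and the median of the type 2 dendritic list ranged from 1.52 to 3.26. Settings that changed only the low-value filter could not alter the ratio of a single gene, and they are counted among the 18. Counts of called genes moved with the settings. Against 401 higher and 471 lower genes, there were 231 and 262 with at least 200 genes per barcode, 621 and 738 with the exclusions made before ranking, and 636 and 799 with only the upper 10% ranked as class II-high. There were 1335 higher with at least 700 genes, 729 lower with the same exclusions on the class II-low barcodes, 1804 and 812 with no filter on low values, and 52 and 33 at 50 CPM, a setting added after seeing the data. Fcrls turned to 1.42 with at least 700 genes and to 0.14 with only the upper 10% ranked as class II-high, and Fnip1 to 0.32 with at least 700. March1 turned to 0.13 and the monocyte list to -0.0575 with the exclusions made first, and on thinned barcodes the monocyte list turned to -0.18, Osm to -0.71 and Sirpb1c to -0.37. The cause was not tested.

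Within the class II-high set, the 1399 higher and 689 lower genes became 2741 higher when at least 3 UMIs were compared with 0, 4319 and 186 after thinning, and 184 and 209 at 50 CPM. The osteoclast list turned to 0.76 after thinning, and the chemokine receptor list to 1.24 after thinning and 0.28 at 50 CPM. After thinning, the higher genes went from 496 to 861 at day 2 and from 367 to 734 at day 5, and the type 1 dendritic list of day 2 turned to -0.32. With barcodes past the day 0 share, the osteoclast list of day 2 turned to -1.50. The cause was not tested. No paired analysis was possible because each day has 1 library, so the days share fewer than 2 replicate numbers. Precision is set by few UMIs: 10 CPM is 4.47 UMIs in the class II-high set and 17.1 in the class II-low set.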
